A study of Mus musculus with 10 samples.

Results

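Cholesterol and fatty acid synthesis was followed through 28 genes listed for their function. They are 15 enzymes of the sterol route, 8 enzymes of the fatty acid route, 4 regulators and 1 sterol carrier, out of 23924 usable gene symbols, and all 28 were found by symbol in both expression tables. RNA had been sequenced from mouse pancreatic tumours transplanted into the pancreas of athymic nude mice, hosts without a thymus that still have B cells, natural killer cells and myeloid cells. The tumours are of a pair of models that the labels call KrasT and MycT, and the study asks about tumour cells that persist without their oncogenic driver. Doxycycline is the drug that controls tetracycline-regulated transgenes, but the labels do not describe the transgenes.

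The KrasT doxycycline group holds 3 tumours from mice that drank doxycycline at 100 ug/ml with 2.5% sucrose for 14 days, and the KrasT untreated group holds 3 tumours labelled with 0 days of doxycycline. The MycT doxycycline group holds 2 tumours under the same treatment, and the MycT untreated group 2 tumours labelled with 0 days. No sucrose is named for the untreated mice, so effects of sucrose, of doxycycline itself and of a transgene cannot be told apart. Each tumour carries an animal number of its own, and the labels give no age, sex or parental tumour, so the spread within a group may in part be technical. One untreated MycT library carries a number that no label has, and it is called the unnumbered library below.

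Cells make cholesterol from acetyl-CoA through mevalonate, farnesyl diphosphate, squalene and lanosterol, and make fatty acids from the same acetyl-CoA through malonyl-CoA and palmitate. Most of these enzymes are transcribed under the sterol regulatory element binding proteins, of which the product of Srebf2 acts mainly on sterol genes and that of Srebf1 mainly on fatty acid genes. The Scap protein carries these factors to the Golgi to be cut into their active form, and the Insig1 protein holds them in the endoplasmic reticulum while sterols are plentiful. Fat tissue is a main site of fatty acid synthesis in the mouse, and adipocytes express its enzymes at high levels.

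Values are FPKM, fragments scaled by gene length and by library size, in the deposited tables, and they can be compared between genes because they are per length. Read totals are not in the tables, and relative depth read from value steps spanned 1.0 to 1.57 in KrasT and 0.67 to 1.08 in MycT, each set to 1 library of its table. The summed FPKM of a library was 513949 to 569272 after doxycycline and 789672 to 1517332 untreated, over both models. No fit or sum below is scaled to this total. Per unit of it, a fall after doxycycline would be smaller or turned round, and a rise larger. Myc had 9.54 and 8.98 FPKM in MycT doxycycline libraries, against 0.398 and 2.85 FPKM in MycT untreated libraries, and since the labels do not say whether the transgene is counted under this symbol, Myc is no check of the MycT labels. Markers of other cells differed with treatment. The sum of 8 fibroblast markers was 3802 to 9199 FPKM in KrasT doxycycline libraries against 289.9 to 647 in KrasT untreated ones, and 1623 and 2379 FPKM in MycT doxycycline libraries against 35.5 and 415 in MycT untreated ones. The sum of 6 proliferation genes was 8.36 to 16.8 FPKM in KrasT doxycycline libraries against 53.4 to 99.9 in KrasT untreated ones, and 13.5 and 55.0 FPKM in MycT doxycycline libraries against 461 and 334 in MycT untreated ones. The part of these cell shifts in the results below was not tested, and in such bulk tissue fewer cells of a type and less RNA per cell cannot be told apart.

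A few libraries stand apart in ways that touch these genes. KrasT doxycycline replicate 1 and MycT doxycycline replicate 2 carried fat-tissue RNA: the sum of 18 adipocyte markers was 4014 and 2082 FPKM in them, against 277 to 813 FPKM in the other doxycycline libraries of both models and 95.03 to 209.8 FPKM in the untreated ones. Rn45s, the ribosomal RNA precursor, was at 17240 and 20880 FPKM in the same pair of libraries and at 546 to 2231 FPKM in the others. KrasT untreated replicate 1 had low epithelial markers, with Krt7 at 7.10 FPKM against 3348 and 1258 FPKM in the other KrasT untreated libraries and Epcam at 7.22 FPKM against 375 and 530.2 FPKM. Its 8 epithelial markers summed to 2356 FPKM, against 18530 and 9383 FPKM in those libraries, and none of the 8 was at 0 in any of the 10 libraries. Other tissues were present in doxycycline libraries too. The sum of 10 skeletal muscle markers was 7237 FPKM in KrasT doxycycline replicate 2 and 8980 FPKM in MycT doxycycline replicate 1, against 4.50 to 567 FPKM in the untreated libraries of both models. The sum of 8 acinar markers was 14310 FPKM in KrasT doxycycline replicate 3 and that of 6 islet markers 7472 FPKM in KrasT doxycycline replicate 1, against at most 575 and 67.5 FPKM in untreated libraries. The part of these tissues was not tested.

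**Figure D1:**
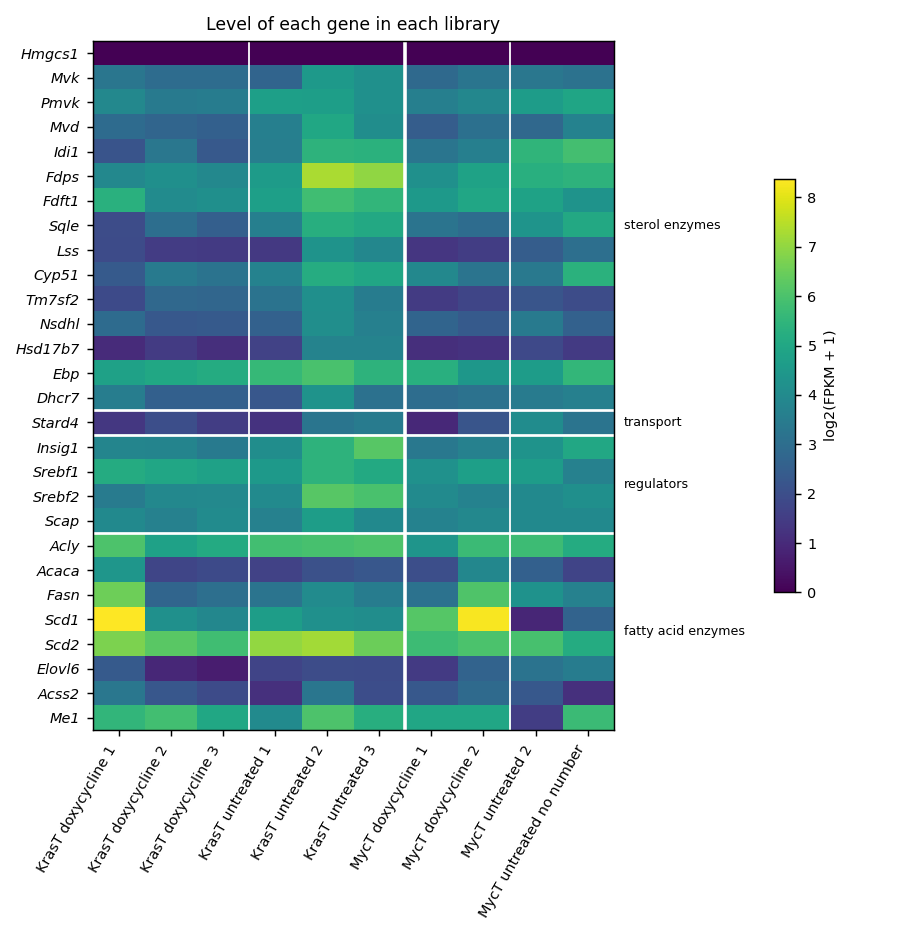
Level of each of the 28 genes (rows, by role) in each of the 10 libraries (columns), as log2(FPKM + 1) from dark (0) to yellow. Within KrasT most sterol rows are brightest in untreated replicates 2 and 3, Hmgcs1 is at 0 throughout, and the Scd1 and Fasn cells are bright in KrasT doxycycline replicate 1 and MycT doxycycline replicate 2.

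In KrasT tumours the sterol enzymes were lower on average after doxycycline, while the fatty acid enzymes differed in both directions. The groups overlapped for the sterol enzymes Mvk, Fdft1, Lss, Nsdhl and Dhcr7. All 14 tested sterol enzymes had a negative log2 change, with a median of -1.31, against a median of -0.10 over all 12696 genes tested, of which 54.7% were below 0. Under a scaling that set the libraries' median ratio to 1, the medians were -1.20 for the sterol enzymes and 0.014 for all genes, and only Sqle passed (3.7% of members, against 5.53% of all genes that fell). The 8 fatty acid enzymes had a median of 0.35, with 3 of 8 below 0. Of the 27 members tested, 3 fell, Sqle, Mvd and Idi1, and 0 rose, by limma with Benjamini-Hochberg adjustment over all genes tested and an adjusted p under 0.05. That is 11.1% of members, against 8.25% of all genes that fell (8.46% rose, and 16.7% passed in either direction), so the share of members that passed is close to the background. Under quantile normalization 3 members fell, Sqle, Mvd and Hsd17b7, which is 11.1% of members against 4.1% of all genes. In a fit of all 10 libraries with a shared spread 6 fell, Fdps, Hsd17b7 and Pmvk beside the first 3, which is 22.2% against 9.09%. An unadjusted p under 0.05 was reached by 11 members and by 4311 of the 12696 genes. With 3 against 3 libraries an exact permutation test cannot go below p = 0.1, so the calls rest on the spread that limma shares across genes.

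The first enzyme, Hmgcs1, which makes the mevalonate precursor HMG-CoA, was listed at 0 in all 10 libraries and could not be tested. A trio of enzymes then turns mevalonate into isopentenyl diphosphate. Mvk, mevalonate kinase, averaged 7.48 ± 1.11 FPKM in doxycycline and 15.02 ± 8.67 FPKM in untreated KrasT tumours (SD, n = 3 each), and its groups overlapped. Pmvk, the next kinase, had 14.0, 10.01 and 10.6 FPKM in doxycycline replicates 1, 2 and 3, against 25.7, 24.97 and 17.3 FPKM in the untreated ones. The Pmvk groups did not overlap, with a log2 change of -0.91 ± 0.27 (SE) that missed the threshold (limma adjusted p = 0.0637). Mvd, the decarboxylase that ends this stretch, had 6.56, 5.66 and 4.93 FPKM in doxycycline libraries, against 11.3, 30.6 and 16.4 FPKM in untreated libraries. Every doxycycline library lay below every untreated one, and Mvd fell by 3.4-fold between the means, with a log2 change of -1.50 ± 0.38 (limma adjusted p = 0.0415).

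Idi1, which isomerizes isopentenyl diphosphate into the primer of all longer isoprenoids, had 3.54, 8.94 and 4.08 FPKM in KrasT doxycycline libraries, against 11.1, 42.0 and 39.6 FPKM in KrasT untreated libraries. The untreated libraries were all higher, replicate 1 by a small margin and the other two by far. Idi1 fell by 5.60-fold between the means, with a log2 change of -2.18 ± 0.57 (limma adjusted p = 0.0446). Fdps, which builds farnesyl diphosphate, had the largest log2 change of the 27 members, yet it did not pass. It had 14.0, 17.0 and 14.1 FPKM in doxycycline libraries, against 23.0, 160.2 and 125 FPKM in untreated libraries, a log2 change of -2.30 ± 0.69 (limma adjusted p = 0.0638). The doxycycline libraries were tight and the groups did not overlap, but untreated replicate 1 lay much nearer to the doxycycline libraries than to its own group. Fdft1, which joins 2 farnesyl groups into squalene, averaged 23.9 ± 13.2 FPKM in doxycycline and 42.1 ± 15.2 FPKM in untreated tumours (SD, n = 3 each) with overlapping groups.

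Sqle, the squalene epoxidase and a rate-limiting step after mevalonate, had 2.89, 7.09 and 4.82 FPKM in KrasT doxycycline libraries, against 11.3, 36.8 and 32.2 FPKM in KrasT untreated libraries. Its groups did not overlap and it fell by 5.43-fold between the means, with a log2 change of -2.13 ± 0.50 and the smallest p of the members (limma adjusted p = 0.0341). Lss, which closes the rings to give lanosterol, had a log2 change of -1.57 ± 0.74 (limma adjusted p = 0.184). It had 2.80, 1.78 and 1.69 FPKM in doxycycline libraries, against 1.61, 18.6 and 13.6 FPKM in untreated libraries, so that untreated replicate 1 lay below all the doxycycline libraries and the other two far above. Over all 12696 genes tested, 23% had groups without overlap that were lower after doxycycline. Of the enzymes that trim lanosterol to cholesterol, 4 of 6 had groups without overlap, all lower after doxycycline and none past the threshold. They are Cyp51, the lanosterol demethylase (-1.62 log2, limma adjusted p = 0.0601), Hsd17b7, a sterol ketone reductase (-1.85, 0.0742), Tm7sf2, a sterol reductase (-1.12, 0.0949), and Ebp, the sterol isomerase (-0.70, 0.0971). Nsdhl, which works with Hsd17b7 in removing methyl groups, averaged 4.92 ± 1.48 FPKM in doxycycline and 11.1 ± 5.80 FPKM in untreated tumours with overlap. Dhcr7, which reduces the last intermediate, averaged 6.89 ± 3.41 FPKM in doxycycline and 10.1 ± 7.62 FPKM in untreated tumours (SD, n = 3 each), the smallest log2 change among the sterol enzymes (-0.33).

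Among the regulators, both genes tied most closely to the sterol side were lower and the others near level, and 0 of 4 passed. Srebf2, the transcription factor of the sterol genes, had 10.1, 14.1 and 14.3 FPKM in KrasT doxycycline libraries, against 15.3, 72.2 and 62.5 FPKM in untreated libraries, with a log2 change of -1.63 ± 0.58 (limma adjusted p = 0.0976). Its groups did not overlap in FPKM, by a narrow margin at untreated replicate 1. Insig1, the retention protein and itself a target of these factors, averaged 11.9 ± 1.71 FPKM in doxycycline and 43.6 ± 28.4 FPKM in untreated tumours, with a log2 change of -1.56 ± 0.52 (limma adjusted p = 0.0825) and no overlap. Scap, the escort protein, had a log2 change of -0.20 (95% interval -0.95 to 0.56). Srebf1, the factor of the fatty acid genes, had one of -0.043 (95% interval -0.75 to 0.66). Both sets of groups overlapped. Stard4, which carries cholesterol between membranes, had 1.58, 3.01 and 1.88 FPKM in doxycycline libraries, against 1.35, 8.56 and 10.2 FPKM in untreated libraries. Its groups overlapped through untreated replicate 1, the lowest of the 6 libraries (log2 change -1.03 ± 0.61).

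Promoter sequences are shown for a few members that were lower together on the sterol side and for Fasn as a contrast on the fatty acid side. They are RefSeq windows of GRCm38.p6, 250 bases before to 50 after the annotated start, read on the gene's strand. Idi1 lies at chr13:8885356-8885655 (+), Mvd at chr8:122443373-122443672 (-), Insig1 at chr5:28071162-28071461 (+) and Fasn at chr11:120824498-120824797 (-). Capitals mark CCAAT (bound by NF-Y), GGGCGG (the GC box bound by Sp factors) and CACGTG (the E-box), each searched on both strands, so that ATTGG and CCGCCC are marked too.
Idi1: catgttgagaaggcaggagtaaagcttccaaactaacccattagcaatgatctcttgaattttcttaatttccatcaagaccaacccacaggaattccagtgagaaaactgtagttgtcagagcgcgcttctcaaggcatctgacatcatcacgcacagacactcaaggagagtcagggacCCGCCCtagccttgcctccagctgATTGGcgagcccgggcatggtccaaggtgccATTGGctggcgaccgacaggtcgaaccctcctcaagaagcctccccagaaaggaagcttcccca
Mvd: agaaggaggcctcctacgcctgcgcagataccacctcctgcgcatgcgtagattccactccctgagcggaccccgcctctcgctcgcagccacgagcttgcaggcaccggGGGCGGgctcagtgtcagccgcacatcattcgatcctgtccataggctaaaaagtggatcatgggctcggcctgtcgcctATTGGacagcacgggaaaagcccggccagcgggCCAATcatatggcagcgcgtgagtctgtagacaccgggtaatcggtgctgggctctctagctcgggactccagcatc
Insig1: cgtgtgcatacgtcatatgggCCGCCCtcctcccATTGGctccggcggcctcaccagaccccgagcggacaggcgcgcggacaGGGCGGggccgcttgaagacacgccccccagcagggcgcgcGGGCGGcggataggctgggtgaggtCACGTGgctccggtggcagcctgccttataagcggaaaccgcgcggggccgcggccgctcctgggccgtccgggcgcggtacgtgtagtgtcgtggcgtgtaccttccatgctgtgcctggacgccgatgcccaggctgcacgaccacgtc
Fasn: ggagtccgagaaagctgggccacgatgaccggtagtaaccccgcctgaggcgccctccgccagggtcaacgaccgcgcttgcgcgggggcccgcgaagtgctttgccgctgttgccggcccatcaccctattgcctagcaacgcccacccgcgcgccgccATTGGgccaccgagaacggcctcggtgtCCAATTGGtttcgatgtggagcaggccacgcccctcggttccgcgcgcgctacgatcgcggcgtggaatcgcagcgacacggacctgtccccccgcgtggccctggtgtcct

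The Idi1 window holds 2 CCAAT and 1 GC box, the Mvd window 2 CCAAT and 1 GC box, the Insig1 window 1 CCAAT, 3 GC boxes and 1 E-box, and the Fasn window 3 CCAAT, of which 2 on opposite strands share bases. No match of one motif overlapped one of another. Windows were found for 22 of the 28 members (none for Fdps, Fdft1, Sqle, Stard4, Scd1 and Scd2). CCAAT was in 12 of 12 sterol enzymes, 4 of 6 fatty acid enzymes and 3 of 4 regulators with a window, 19 of 22 in all, against 41.1% of the 27025 genes with a window. The GC box was in 18 of 22, against 38.2%, and the E-box in 4 of 22 (Hsd17b7, Dhcr7, Insig1 and Scap), against 8.09%. The sterol regulatory element spelled TCACNCCAC was in 1 of 22 (Hmgcs1), against 1.44%. These are matches of letters and no binding was measured.

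**Figure D2:**
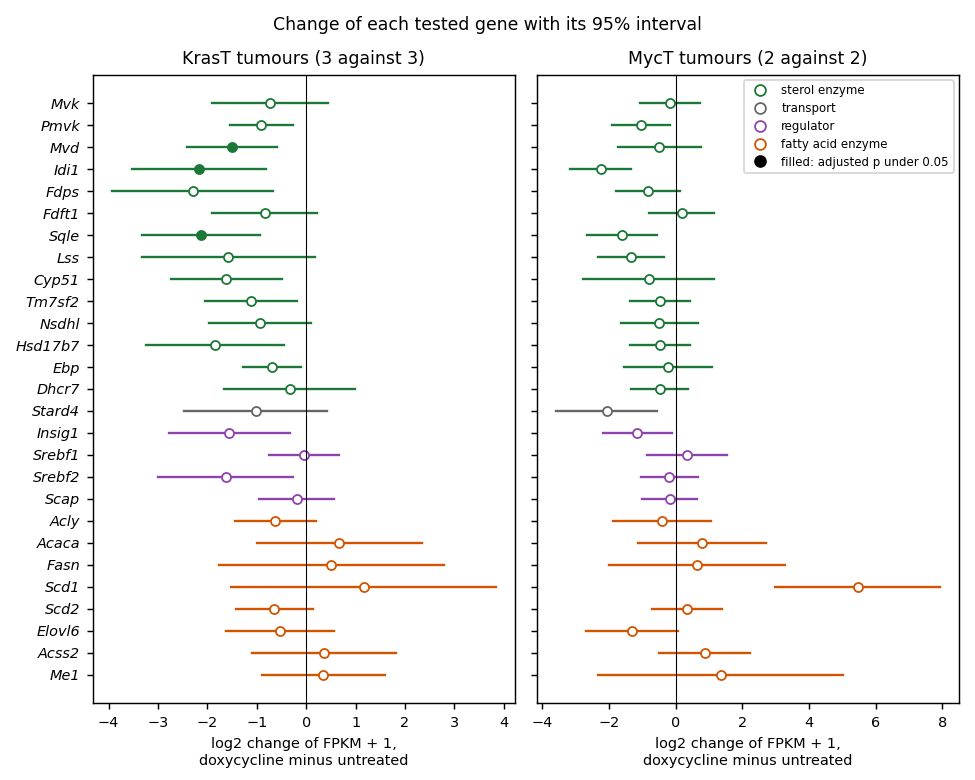
Log2 change of FPKM + 1, doxycycline minus untreated, for the 27 tested genes in KrasT (left) and MycT (right), as points with 95% intervals from limma, coloured by role and filled where the adjusted p was under 0.05. Sqle, Mvd and Idi1 in KrasT are filled, the sterol points lie left of 0 except Fdft1 in MycT, and Scd1 in MycT lies farthest right at 5.46.

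Among fits that leave out a single KrasT library, members passed only without untreated replicate 1. In that library 10 of 14 sterol enzymes were below 0.5 of the mean of the other two untreated libraries, with a median ratio of 0.346 over the 14, against 1.06 over all genes and 0.734 over the fatty acid enzymes. Fdps stood at 0.162 of that mean and Lss at 0.0997. Without it, 13 of 27 members fell, which is 48.1% against 17.6% of all genes, and 0 rose. Since most sterol enzymes were low in that library, leaving it out enlarges their fall by construction. The excess over all genes is therefore no separate support for the fall. The 13 are 10 sterol enzymes (Mvk, Mvd, Idi1, Fdps, Sqle, Lss, Cyp51, Tm7sf2, Nsdhl and Hsd17b7), the regulators Srebf2 and Insig1, and Stard4. Fdps then had a log2 change of -3.16 (limma adjusted p = 0.00132), Srebf2 -2.32 (0.00301) and Insig1 -2.13 (0.00611). The same library had the low epithelial markers given above, and the part of those cells in its sterol values was not tested. Leaving out any other single KrasT library ended all 3 calls, so that 0 of 27 members passed in each of those 5 fits. The shares of all genes were 7.91%, 7.15% and 0.945% without doxycycline replicates 1, 2 and 3, and 2.69% and 0.89% without untreated replicates 2 and 3. The log2 changes over all 6 fits ran from -2.64 to -1.83 for Sqle, -2.77 to -1.86 for Idi1 and -1.81 to -1.13 for Mvd.

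**Figure D3:**
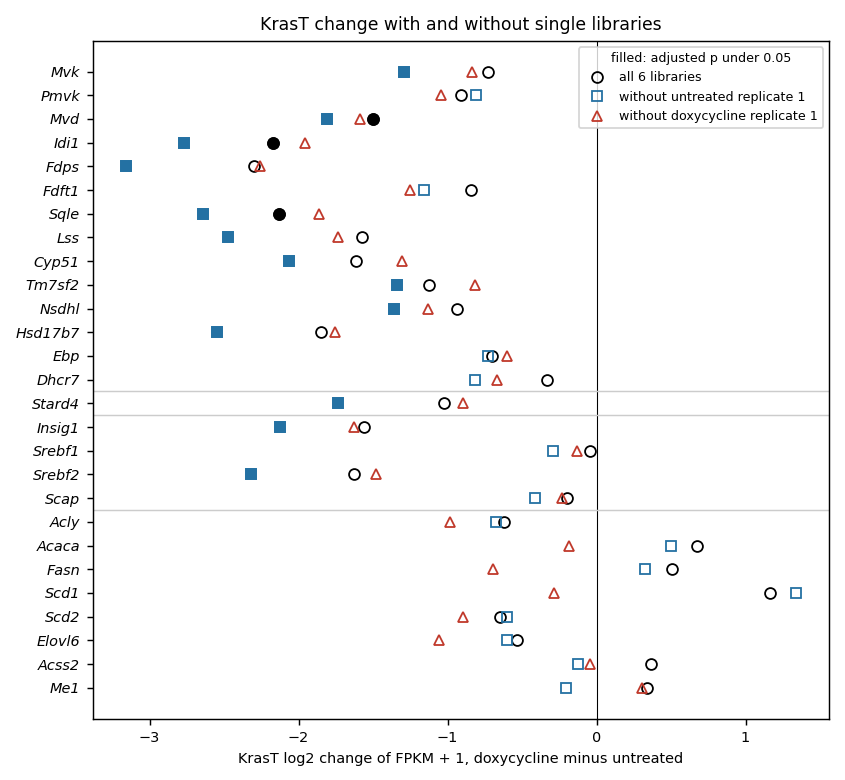
KrasT log2 change of FPKM + 1, doxycycline minus untreated, for the 27 tested genes with all 6 libraries (circles), without untreated replicate 1 (squares) and without doxycycline replicate 1 (triangles), filled where the limma adjusted p was under 0.05. The squares of 13 genes are filled, 3 of the circles are, and the triangles of Scd1, Fasn and Acaca lie left of 0 where their circles lie right of it.

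On the fatty acid side in KrasT, the values of one doxycycline library set the means. Scd1, the stearoyl-CoA desaturase of fat and liver, had 333, 17.3 and 13.9 FPKM in KrasT doxycycline replicates 1, 2 and 3, against 24.6, 17.3 and 16.3 FPKM in the untreated ones. Fasn, the synthase that builds palmitate, had 90.8, 5.71 and 7.41 FPKM in doxycycline libraries, against 8.43, 15.7 and 10.4 FPKM in untreated libraries. Acaca, the acetyl-CoA carboxylase that makes malonyl-CoA, had 20.0, 2.38 and 2.68 FPKM in doxycycline libraries, against 2.15, 3.24 and 3.82 FPKM in untreated libraries. For all 3 genes doxycycline replicate 1 was the highest of the 6 libraries by far and the other two doxycycline libraries lay within or just below the untreated range. The log2 changes were 1.16 ± 1.13 (SE) for Scd1, 0.51 ± 0.96 for Fasn and 0.67 ± 0.71 for Acaca, and none passed.

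Doxycycline replicate 1 over the mean of the other two gave 21.4 for Scd1, 13.8 for Fasn, 7.89 for Acaca, 5.60 for the elongase Elovl6, 2.71 for the acetyl-CoA synthetase Acss2, 2.12 for the citrate lyase Acly, 1.65 for the desaturase Scd2 and 1.03 for the malic enzyme Me1. The median over these 8 genes was 4.16, against 1.07 over the sterol enzymes and 0.998 over all genes. All 18 adipocyte markers were at 1 FPKM or more in that library, against 14 and 13 in the other KrasT doxycycline libraries and 6 to 8 in the untreated ones. Adipoq, the adipocyte hormone adiponectin, was at 129 FPKM in it, at 3.49 and 1.01 FPKM in the other two and at 0.0661 to 0.129 FPKM in untreated KrasT tumours, where the leptin gene Lep was at 0 in all 3. Cidea and Pparg of the same list went the other way against untreated replicates 2 and 3. Cidea was at 1.54 FPKM in doxycycline replicate 1 and at 13.8 and 13.7 FPKM in the other doxycycline libraries, against 77.6 and 80.4 FPKM in those untreated libraries. Pparg was at 14.2 FPKM in doxycycline replicate 1, against 56.6 and 31.8 FPKM in the same untreated libraries. Without doxycycline replicate 1 the fatty acid median was -0.49 with 7 of 8 genes below 0, against a sterol median of -1.28, and 0 of 27 members passed, beside 7.91% of all genes.

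The remaining fatty acid enzymes of KrasT were mixed. Acly, which makes cytosolic acetyl-CoA from citrate, averaged 41.9 ± 20.1 FPKM in doxycycline and 60.9 ± 4.22 FPKM in untreated tumours (SD, n = 3 each). Scd2, the desaturase found in most tissues, averaged 78.1 ± 25.9 FPKM in doxycycline and 122 ± 29.8 FPKM in untreated tumours. Elovl6, which lengthens palmitate, had a log2 change of -0.53 (95% interval -1.63 to 0.56). Acss2, which makes acetyl-CoA from acetate, had 9.01, 3.83 and 2.81 FPKM in doxycycline libraries, against 1.23, 8.86 and 2.92 FPKM in untreated libraries. Me1, a source of NADPH, had 44.7, 55.9 and 30.8 FPKM in doxycycline libraries, against 15.1, 64.5 and 37.5 FPKM in untreated libraries. Each of these 5 genes had overlapping groups and none passed. With doxycycline replicate 1 and untreated replicate 1 both left out, a setting chosen after the data were seen, all 8 fatty acid enzymes were below 0 (median -0.69), and Elovl6 (-1.13, limma adjusted p = 0.0125) and Acly (-1.03, 0.0157) passed. In that fit 17 of 27 members fell, 63% against 21.1% of all genes. Untreated replicate 1 was low in most sterol enzymes, and doxycycline replicate 1 was high in most fatty acid enzymes. Leaving both out therefore enlarges the falls by construction, and the excess over all genes is no separate support for them.

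**Figure D4:**
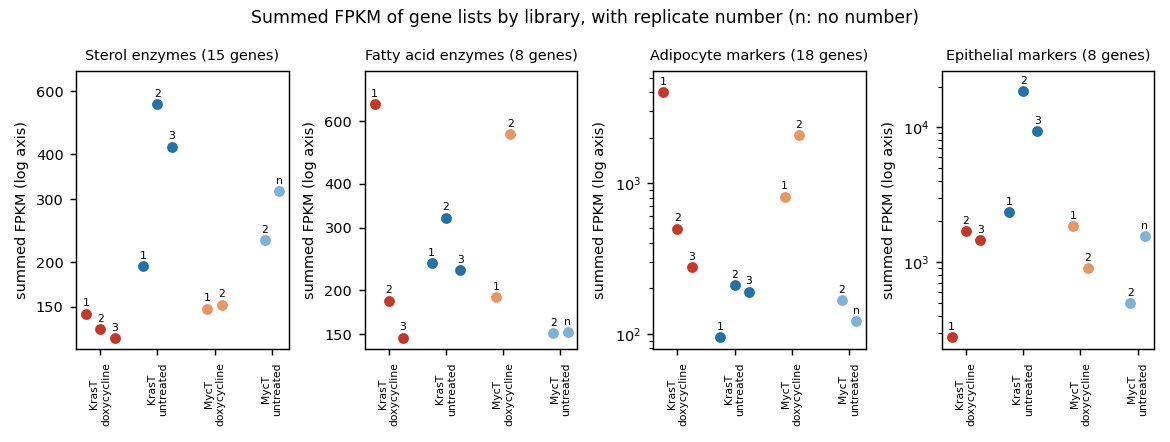
Summed FPKM (log axes) of the 15 sterol enzymes, the 8 fatty acid enzymes, 18 adipocyte markers and 8 epithelial markers in each library, by group and labelled with the replicate number (n for the unnumbered library). The sterol sums of both doxycycline groups lie below all untreated ones, and the highest fatty acid and adipocyte sums are in KrasT doxycycline replicate 1 and MycT doxycycline replicate 2.

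Summed over each route, the sterol enzymes gave 144, 130.4 and 123 FPKM in KrasT doxycycline libraries, against 195, 553 and 421 FPKM in untreated ones. The doxycycline mean was 0.340 of the untreated mean and the groups did not overlap. These sums were not scaled to the summed FPKM of each library, which was lower in every doxycycline library. The sums of the 8 epithelial markers did not overlap either, at 278, 1708 and 1452 FPKM in doxycycline libraries, against 2356, 18530 and 9383 FPKM in untreated ones. Taken singly, only Krt8 and Krt18 had groups without overlap, and Krt19, Krt7, Epcam, Cdh1, Cldn4 and Cldn7 overlapped. In untreated replicate 1, Krt8 and Krt18 were at 681 and 1497 FPKM and so made up most of the sum. The part of these markers in the sterol sums was not tested. The fatty acid enzymes gave 672, 187 and 147 FPKM in doxycycline libraries, against 239, 321 and 228 FPKM in untreated ones, and these groups overlapped. The sterol sum over the fatty acid sum was 0.214, 0.698 and 0.838 in doxycycline libraries, against 0.817, 1.73 and 1.85 in untreated ones, with doxycycline replicate 3 just above untreated replicate 1.

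In FPKM, MycT tumours also had lower sterol enzymes after doxycycline, led by Idi1, Sqle and Lss, and their largest difference was a higher Scd1. The summed FPKM of these libraries was 557227 and 546008 after doxycycline, against 1126800 and 1517332 untreated. Whether the sterol enzymes were lower per unit of that total was not tested. With 2 against 2 libraries, 0 of 27 members passed, beside 0.039% of all 12834 genes tested (5 genes, 0.0312% lower and 0.00779% higher), while an unadjusted p under 0.05 was reached by 7 members and 4284 genes. The sterol median was -0.50 with 13 of 14 enzymes below 0, and the fatty acid median 0.71 with 2 of 8 below 0, against 0.041 over all genes, of which 48.4% were below 0. Exact permutation cannot go below p = 0.333 with 2 against 2. The fit of all 10 libraries called 3 members, Idi1 and Pmvk lower and Scd1 higher, 11.1% against 20.4% of all genes (12.3% lower, 8.11% higher), below the background. Groups did not overlap for 12 members that were lower (44.4%, against 32.8% of all genes) and 2 that were higher, Scd1 and Acss2 (7.41%, against 31.9%). In KrasT these counts were 11 lower (40.7%, against 23% of all genes) and 0 higher (against 16.8%).

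Idi1 had 8.59 and 11.2 FPKM in MycT doxycycline replicates 1 and 2, against 43.5 and 58.3 FPKM in untreated replicate 2 and the unnumbered untreated library. The untreated pair was several times the doxycycline pair, a log2 change of -2.25 ± 0.35 (limma adjusted p = 0.0638, in the fit of all 10 libraries 0.0358). Pmvk had 11.3 and 13.7 FPKM in MycT doxycycline libraries, against 23.9 and 29.7 FPKM in untreated libraries, with a log2 change of -1.04 ± 0.33 and no overlap (limma adjusted p = 0.112, with all 10 libraries 0.0455). Sqle had 8.34 and 6.80 FPKM in doxycycline libraries, against 19.1 and 32.6 FPKM in untreated libraries. It did not overlap either and missed the threshold in both fits (limma adjusted p = 0.0822 and 0.0747). Stard4 had 0.968 and 3.58 FPKM in doxycycline libraries, against 15.9 and 8.42 FPKM in untreated libraries, the second largest negative log2 change of the members in this model (-2.07 ± 0.58, limma adjusted p = 0.0939).

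The rest of the sterol route had log2 changes closer to 0 than Pmvk in MycT, except Lss. Fdps had 17.6 and 27.6 FPKM in doxycycline libraries, against 37.7 and 42.2 FPKM in untreated libraries, and Lss 1.5 and 1.86 FPKM against 4.54 and 7.28 FPKM, both without overlap. Mvd had 4.54 and 7.59 FPKM in doxycycline libraries, against 6.14 and 12.3 FPKM in untreated libraries, which overlapped. Cyp51 had 14.2 and 8.27 FPKM in doxycycline libraries, against 9.39 and 40.2 FPKM in untreated libraries, a wide split of the untreated pair. Dhcr7, Tm7sf2 and Hsd17b7 did not overlap but had log2 changes of only -0.48 to -0.47, and Mvk, Nsdhl, Ebp and Fdft1 overlapped, with log2 changes of -0.49 (Nsdhl) to 0.18 (Fdft1, the only positive one). Of the regulators, Insig1 averaged 10.6 ± 1.85 FPKM in doxycycline and 25.1 ± 8.84 FPKM in untreated MycT tumours (SD, n = 2 each), without overlap (limma adjusted p = 0.128). Srebf2 averaged 13.8 ± 2.10 FPKM in doxycycline and 15.9 ± 1.61 FPKM in untreated tumours, a log2 change of -0.19 (95% interval -1.05 to 0.66). Scap had one of -0.18 and Srebf1 one of 0.34, and neither passed. The summed sterol enzymes gave 148 and 152 FPKM in MycT doxycycline libraries, against 231 and 316 FPKM in untreated ones. The 8 epithelial markers summed to 1837 and 903 FPKM in MycT doxycycline replicates 1 and 2, against 496 and 1566 FPKM in the untreated ones, and so overlapped.

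Scd1 had 71.1 and 314 FPKM in MycT doxycycline replicates 1 and 2, against 0.854 and 5.30 FPKM in untreated replicate 2 and the unnumbered library. Both doxycycline libraries were far above both untreated ones, a log2 change of 5.46 ± 0.95 (limma adjusted p = 0.0652, with all 10 libraries 0.0258). MycT doxycycline replicate 2 over replicate 1 was 4.42 for Scd1, 8.32 for Fasn and 4.50 for Acaca, with a median of 2.90 over the 8 fatty acid enzymes, 1.23 over the sterol enzymes and 1.04 over all genes. Adipocyte markers at 1 FPKM or more were 15 of 18 in replicate 1 and 17 of 18 in replicate 2, against 7 and 6 of 18 in the untreated libraries, where Plin1 and Lep were at 0. Adipoq was at 15.4 and 65.9 FPKM in the MycT doxycycline libraries, against 0.0657 and 0 FPKM in the untreated ones. Cidea of the same list was at 1.16 and 0.454 FPKM in the doxycycline libraries, against 7.19 and 0 FPKM in the untreated ones, and so overlapped. In a fit of both models without replicate 2 and without KrasT doxycycline replicate 1, Scd1 was the only member to pass in MycT, with a log2 change of 4.40 ± 0.71 (limma adjusted p = 0.0413), beside 2.08% of all genes (0.398% higher), and 0 of 27 passed in KrasT, beside 4.42%. There the 1 doxycycline MycT library is assumed to vary like the other groups. Its adipocyte markers still summed to 813 FPKM, against 168 and 121 FPKM in the untreated libraries, beside the muscle sum of 8980 FPKM given above. Of the adipocyte list, Car3 alone was at 281 FPKM in it, near the 291 FPKM of doxycycline replicate 2. That fit therefore cannot tell fat tissue from other changes, and the part of fat tissue in Scd1 was not tested.

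**Figure D5:**
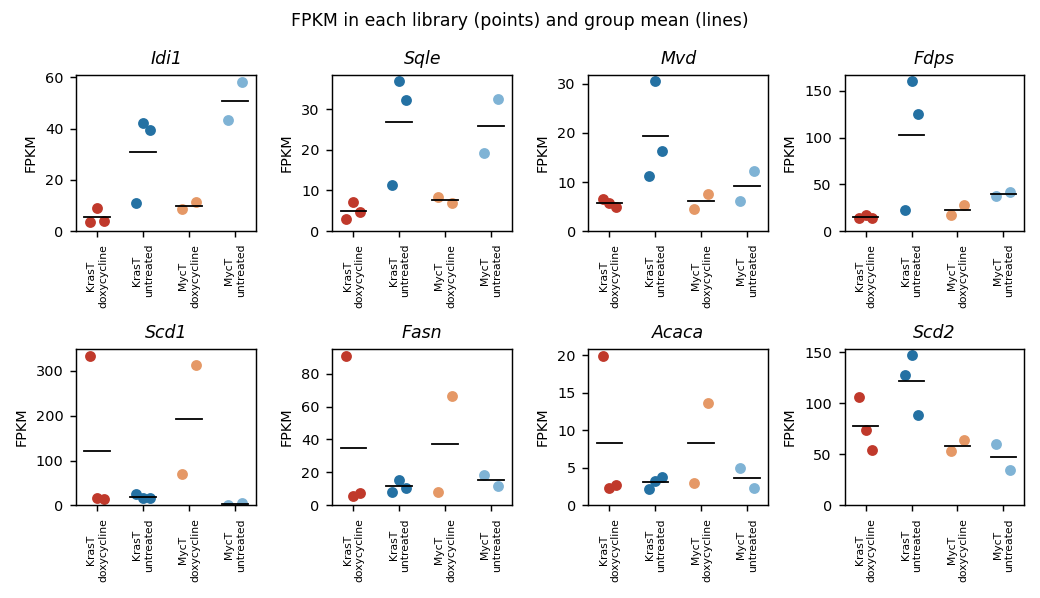
FPKM of 4 sterol enzymes (top) and 4 fatty acid enzymes (bottom) in each library, as points in replicate order, with the group mean as a line. For Idi1, Sqle, Mvd and Fdps every KrasT doxycycline point lies below every KrasT untreated one, and 1 point of the KrasT and of the MycT doxycycline group lifts the Scd1, Fasn and Acaca means.

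Other fatty acid enzymes in MycT followed no single direction. Fasn had 7.97 and 66.3 FPKM in doxycycline libraries, against 18.4 and 12.0 FPKM in untreated libraries, and Acaca 3.03 and 13.6 FPKM against 4.94 and 2.32 FPKM. For both, replicate 2 lay above and replicate 1 among or below the untreated libraries. Acss2 had 4.01 and 6.42 FPKM in doxycycline libraries, against 3.91 and 1.24 FPKM in untreated libraries, higher by a narrow margin (limma adjusted p = 0.300). Me1 had 30.4 and 30.3 FPKM in doxycycline libraries, against 1.85 and 52 FPKM in untreated libraries, so its untreated pair spans the doxycycline pair. Elovl6 had 1.69 and 5.35 FPKM in doxycycline libraries, against 8.20 and 10.4 FPKM in untreated libraries, lower without overlap (log2 change -1.31 ± 0.52, limma adjusted p = 0.162). Acly and Scd2 overlapped, with log2 changes of -0.41 and 0.34. Without doxycycline replicate 2 the fatty acid median was 0.036, with 4 of 8 genes below 0, and the sterol median -0.59. The fatty acid sums were 191 and 552 FPKM in doxycycline libraries, against 151 and 153 FPKM in untreated ones. Without Scd1 and Scd2 these sums were 66.8 and 174 FPKM in doxycycline libraries, against 90.1 and 113 FPKM in untreated ones, and they overlapped. The sterol sum over the full fatty acid sum, Scd1 and Scd2 included, was 0.778 and 0.276 in doxycycline libraries, against 1.53 and 2.07 in untreated ones.

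The change in MycT minus the change in KrasT, tested as 1 term over all 10 libraries, passed for 0 of 27 members, beside 0.24% of 12073 genes. A p that misses the threshold does not show that the models acted alike, and the intervals are wide. The smallest p was that of Scd1, with a difference of 4.30 ± 1.77 on the log2 scale (95% interval 0.30 to 8.31, limma adjusted p = 0.225). For Idi1 the difference was -0.070 (95% interval -1.90 to 1.76), and for Sqle 0.53 (-1.14 to 2.19). For Fdps it was 1.48 (-0.73 to 3.68), for Hsd17b7 1.38 (-0.48 to 3.24) and for Srebf2 1.43 (-0.40 to 3.26), each log2 change being nearer 0 in MycT. Without KrasT untreated replicate 1, these last 3 passed, with differences of 2.33 for Fdps (limma adjusted p = 0.0156), 2.08 for Hsd17b7 (0.018) and 2.12 for Srebf2 (0.0171), which is 11.1% of members against 12.6% of all genes, close to the background.

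Other genes of the pathway, 36 chosen for function of which 35 were tested, lay on both sides as well. In KrasT, 6 of 35 fell and 3 rose, and without doxycycline replicate 3, or without untreated replicate 2 or 3, 0 of 35 passed. The background is the 8.25% of all genes that fell and the 8.46% that rose, and 0.945%, 2.69% and 0.89% that passed in those 3 fits. Msmo1, the sterol methyl oxidase, fell by a log2 change of -2.53 (limma adjusted p = 0.0162), and Acsl4, which activates arachidonic acid, by -1.88 (0.0192). Mbtps2, a protease that cuts the sterol factors, the desaturase Sc5d and the acyl-CoA synthetase Acsl3 were among the others that fell. The 3 that rose were Mylip, a ubiquitin ligase of the LDL receptor (2.64, limma adjusted p = 0.0186), Mlxipl, the carbohydrate response factor of lipogenesis (1.51, 0.0155), and Acacb, the mitochondrial acetyl-CoA carboxylase (1.23, 0.0193). Mlxipl and Acacb were under 1 FPKM in every KrasT untreated library. They were kept for testing only through the doxycycline libraries in which they are high. In MycT 0 of 35 passed. The difference between models passed for 0 of 35.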

How the data were processed

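Total RNA of 10 tumours was sequenced, per the labels' protocols with a TruSeq RNA kit on a HiSeq2000. The authors deposited FPKM per gene in 2 tables, KrasT and MycT. The tools named are TopHat and cutadapt and the build is mm9, per the submitters' processing notes. The quantifier, the annotation and the use of strand are not given in these sources, so reads of overlapping genes or close copies (such as Scd1 and Scd2) may be shared. Depth in reads is unknown.

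Of 23951 rows per table, 27 with symbols turned into dates were left out. Groups came from the labels, columns from the animal numbers in their names. Each table was tested on log2(FPKM + 1), so changes of low genes are understated, in R 4.3.3 by limma 3.58.1 (two-sided, eBayes, trended prior). Genes were kept at 1 FPKM or more in at least 3 KrasT or 2 MycT libraries, and passed at an adjusted p (Benjamini-Hochberg) under 0.05 over all genes kept. MycT and KrasT changes were compared by an interaction term over all 10 libraries. The fits were run on simulated data, where only the slope of the estimated change was held to a limit. Changes were added there only to genes of a higher level than Sqle, Mvd and Idi1, so the member calls were not tested by it. Promoter windows came from a RefSeq table of GRCm38.p6, so no coordinates were mixed with mm9. Python 3.11.15 and matplotlib 3.10.9 drew the figures.

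The members, the 36 other pathway genes and the marker lists were chosen with earlier results of these data known. All 28 members are named. Values in every library are given at least for members called in the fit of a table, in their difference or in the joint fit of MycT, and for the 3 largest changes each way, and other pathway genes by up to 3 of smallest p per direction, of which some are not reported here. Named beyond this rule, after their values were seen, are Mbtps2, Sc5d, Acsl3 and the library values of further members. Alternatives were another pseudocount, 2 other filters, 2 scalings, other spread models, library weights, a joint fit and leaving out libraries.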

Additional observations from a re-analysis of the deposited data

Results flagged for a closer look

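In both results below the doxycycline and untreated groups did not overlap in either model. The direction was opposite between the models, and the interaction test did not pass for either result. Mlxipl, a transcription factor of lipogenesis, had 1.5, 2.93 and 2.20 FPKM in KrasT doxycycline libraries, against 0.167, 0.0604 and 0.0979 FPKM in untreated ones. It was kept for testing in KrasT only through the doxycycline libraries. In MycT it had 1.45 and 3.23 FPKM in doxycycline libraries, against 6.64 and 5.55 FPKM in untreated ones, so the MycT change minus the KrasT change was -2.65 ± 0.45 on the log2 scale (SE, limma adjusted p = 0.0527). Acsl4, an acyl-CoA synthetase, had 13.7, 10.6 and 6.81 FPKM in KrasT doxycycline libraries, against 28.6, 41.7 and 52.1 FPKM in untreated ones. In MycT it had 9.12 and 12.9 FPKM in doxycycline libraries, against 3.92 and 7.74 FPKM in untreated ones, a difference of 2.74 ± 0.57 (limma adjusted p = 0.0698).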

How the results depend on the processing

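No paired analysis was possible because the animal numbers differ between all samples and none is shared by groups. The sterol medians stayed below 0 and the KrasT members called never rose in any alternative run. No alternative scaled the libraries to their summed FPKM. With a pseudocount of 0.1 the MycT sterol median was -0.67 and 18 genes differed between models. With no filter on low values 0 KrasT members, 0 MycT genes and 88 genes for the difference passed. With a mean FPKM of at least 5 these were 1340 KrasT genes, 10 MycT genes and 3 for the difference. Median-ratio scaling left 1 KrasT member (Sqle). Quantile normalization gave 1078 KrasT genes, a MycT sterol median of -0.70 and 17 genes for the difference. Library weights gave 5935 KrasT genes, 18 members and 17 other pathway genes, 10 MycT genes, and 1475 genes and 4 other pathway genes for the difference. The joint fit gave 6 KrasT members, 2463 MycT genes, 3 MycT members and 5 other pathway genes in MycT.

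Without KrasT doxycycline replicate 1 and MycT doxycycline replicate 2, in the joint fit, 534 KrasT genes, 0 KrasT members, 5 other pathway genes, 251 MycT genes, 1 MycT member and 0 genes for the difference passed. Without KrasT untreated and doxycycline replicates 1, a setting added after seeing the data, 5159 genes, 17 members and 20 other pathway genes passed and the fatty acid median was -0.69. Leaving out single libraries gave 113 to 4223 KrasT genes, 0 to 13 members and 0 to 13 other pathway genes, 0 to 0 MycT genes, a MycT sterol median of -0.79 to -0.59, and 0 to 1522 genes, 0 to 3 members and 0 to 5 other pathway genes for the difference. The cause of these shifts was not tested.

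Signs turned for genes that had not passed. Srebf1 in KrasT was 0.084 with median-ratio scaling and 0.34 with quantile normalization, where Ebp in MycT was 0.068. Library weights gave KrasT Acaca -0.13, Fasn -0.46, Acss2 -0.34 and Me1 -0.28. Without both libraries rich in adipocyte markers KrasT had Acaca -0.18, Fasn -0.69, Scd1 -0.28 and Acss2 -0.043, and MycT had Fdft1 -0.036, Ebp 0.21, Acaca -0.14 and Fasn -0.82. Without both KrasT replicates 1, Acaca was -0.36, Fasn -0.88, Scd1 -0.11, Acss2 -0.53 and Me1 -0.24. Over single libraries left out, KrasT log2 changes ran from -0.18 to 1.13 for Acaca, -0.13 to 0.94 for Acss2, -0.82 to 0.20 for Dhcr7, -0.69 to 1.19 for Fasn, -0.21 to 0.81 for Me1, -0.41 to 0.082 for Scap, -0.28 to 1.96 for Scd1 and -0.29 to 0.17 for Srebf1. MycT ones ran from -0.14 to 1.72 for Acaca, -1.08 to 0.27 for Acly, -1.80 to 0.19 for Cyp51, -0.67 to 0.22 for Ebp, -0.82 to 2.09 for Fasn, -0.078 to 0.44 for Fdft1, -0.76 to 3.46 for Me1, -0.38 to 0.027 for Mvk, -0.051 to 0.74 for Scd2 and -0.13 to 0.82 for Srebf1. Depth in reads is unknown, so what it limits could not be given.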
